A study of Bos taurus with 39 samples.

Results

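The miRNAs described here are bta-miR-206, bta-miR-1, bta-miR-133a and bta-miR-133b, the muscle miRNAs of the bovine oocyte libraries. They were picked by name from the deposited table of known mature miRNAs, with their counts in these libraries already known, and they are 4 of 1995 rows (1030 known and 965 predicted miRNAs). Because their counts chose them, the levels and fold changes below are a description and carry no test. The 39 libraries hold 13 conditions with 3 libraries each. All conditions are pools of bovine oocytes, from slaughterhouse ovaries per the methods. In the control group, oocytes matured for 1, 6 or 22 h inside their cumulus-oocyte complexes (COCs), that is, enclosed by cumulus cells joined to them by gap junctions. The CBX group matured as COCs with carbenoxolone, a gap-junction blocker, for the same times. In the co-culture group, denuded oocytes lay in the same medium as COCs without touching them, and in the denuded (DO) group they matured with no COCs. In the control and CBX groups the cumulus cells were stripped off after maturation, and in the co-culture and DO groups before it. The methods also describe a pronase step after maturation that removed the zona of denuded oocytes, and name no such step for COCs. A further 3 libraries are labelled only as control at 0 h. The replicate number of a library comes from its label, and the study entered the ovary pool as a batch, so libraries with the same number were treated as one pool. The comparisons ask whether the miRNA content of the oocyte depends on contact with cumulus cells and on time.

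miR-1, miR-206 and the miR-133 family are known as myomiRs, miRNAs made mainly in striated muscle. miR-1 is found in heart and skeletal muscle, miR-206 mainly in skeletal muscle, and the closely related pair share a seed, the bases that pair with target transcripts. During muscle development miR-1 and miR-206 favour differentiation of myoblasts, while miR-133 is linked to their proliferation. A miR-1 gene and a miR-133a gene are transcribed together, and so are the genes of miR-206 and miR-133b. In the RefSeq annotation of the ARS-UCD2.0 assembly, 0 genes lie between MIR206 and MIR133B, between MIR1-1 and MIR133A-1, or between MIR1-2 and MIR133A-2. How reads that match several miRNAs were counted is not given in the sources used here, so the split between miR-1 and miR-206, and between the nearly identical members of the miR-133 family, is uncertain.

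The total count per library ranged from 11985 to 175429 (median 70069), and 3 counts, the limit used here for a count of 0, correspond to between 17.1 and 250.3 CPM (counts scaled to a summed total of 1000000 known and predicted miRNA counts in the library). Levels of different miRNAs are compared in CPM without a length correction, because mature miRNAs are of nearly the same length. Any other difference between miRNAs in how well they are captured was not corrected. Between libraries of one condition, the 39 pairs differed by more than counting error (chi-square per degree of freedom from 3.86 to 17.1), and each library was counted as its own replicate. No list of miRNAs marks an oocyte against every other cell, so the labelled cell type was not checked from these tables.

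bta-miR-206 had 1906 counts in all, and 37 of the 39 libraries held at least 1 of them. Its median level was 99.6 CPM, and its highest, in replicate 2 of the control group at 6 h, was 11880 CPM (95% exact binomial interval 10960 to 12860, counting error only). In that library bta-miR-206 was the 9th most abundant known miRNA. Just 9 libraries were above 500 CPM, the lowest of them at 881.9 CPM, and they held 90.4% of all bta-miR-206 counts. The other 30 libraries were at or below 417.2 CPM with a median of 54.3 CPM, so no library lay between 417.2 and 881.9 CPM. The 9 libraries above 500 CPM came from 8 conditions, and no condition had all 3 of its libraries among them.

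**Figure D1:**
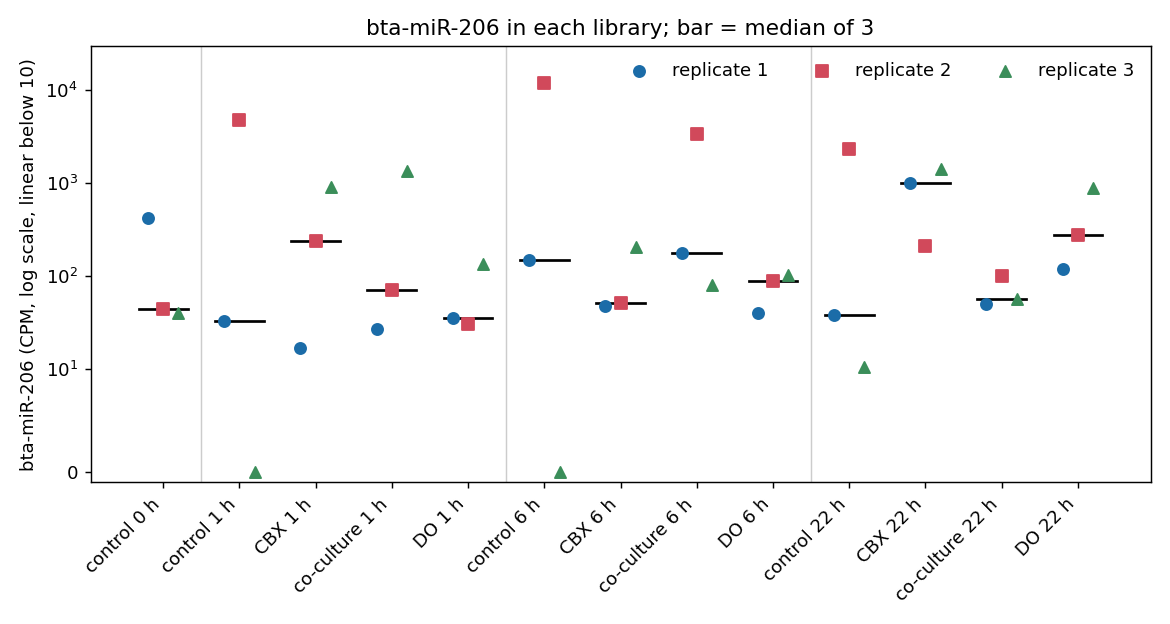
Level of bta-miR-206 in each of the 39 libraries, in CPM on a log axis that is linear below 10, by group and time point, with the marker showing the replicate number and the bar the median of 3. Single libraries stand high above the rest of their condition, among them replicate 2 of the control group at 1 h (4780 CPM), 6 h (11880 CPM) and 22 h (2314 CPM).

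At 0 h, replicates 1, 2 and 3 of the control group held 5, 3 and 2 counts of bta-miR-206, or 417.2, 43.9 and 40.1 CPM. The first of these values comes from the shallowest library, with 11985 counts in all. At 1 h the control libraries held 3, 296 and 0 counts (32.8, 4780 and 0 CPM). At 6 h they held 3, 610 and 0 counts (149, 11880 and 0 CPM), and at 22 h they held 5, 172 and 1 counts (37.9, 2314 and 10.6 CPM). In the control group, then, replicate 2 was high at each of the 3 maturation times and low at 0 h, while replicate 3 was at 0 or 1 count at those 3 times. The mean ± SD over the 3 libraries was 1604 ± 2750 CPM at 1 h, 4010 ± 6818 CPM at 6 h and 787 ± 1322 CPM at 22 h, an SD larger than the mean each time.

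In the CBX group at 1 h, the libraries held 2, 12 and 89 counts of bta-miR-206 (16.8, 240 and 899 CPM). At 6 h they held 7, 3 and 12 counts (47.8, 51.5 and 205.6 CPM). At 22 h they held 91, 4 and 125 counts (992, 213 and 1431 CPM). The CBX group at 22 h was the condition whose 3 libraries lay highest together, and its lowest library, replicate 2, is one of the shallowest of the series with 18796 counts.

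In the co-culture group the counts were 2, 7 and 102 at 1 h (26.8, 70.1 and 1335 CPM), 29, 181 and 5 at 6 h (176, 3348 and 80.8 CPM) and 8, 6 and 4 at 22 h (50.5, 99.6 and 57.1 CPM). The high library was replicate 3 at 1 h and replicate 2 at 6 h, and at 22 h no library stood out, with a highest value 1.97 times the lowest. In the DO group the counts were 3, 1 and 11 at 1 h (35.7, 30.6 and 135 CPM), 7, 5 and 8 at 6 h (39.9, 87.6 and 103 CPM) and 9, 16 and 57 at 22 h (120, 273 and 882 CPM). Replicate 3 was the highest DO library at each time point. A pool of oocytes gives one value per library, so fewer cells of a type that holds the miRNA and less of it per cell cannot be told apart in any of these values.

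The order of the 13 conditions depended on whether the median or the mean of the 3 libraries was used. By the median, the CBX group at 22 h came first (992 CPM), followed by the DO group at 22 h (273 CPM), the CBX group at 1 h (240 CPM), the co-culture group at 6 h (176 CPM) and the control group at 6 h (149 CPM). The next were the DO group at 6 h (87.6 CPM), the co-culture group at 1 h (70.1 CPM) and at 22 h (57.1 CPM), and the CBX group at 6 h (51.5 CPM). The last 4 were the control group at 0 h (43.9 CPM) and 22 h (37.9 CPM), the DO group at 1 h (35.7 CPM) and the control group at 1 h (32.8 CPM). By the mean, the control group at 6 h was first and the control group at 1 h, last by the median, was second. All 12 pairs of neighbours in the order of medians overlapped in their libraries. Of all 78 pairs of conditions, 6 did not overlap, and each of these 6 had the CBX group or the DO group at 22 h as its higher member. With 3 libraries per condition, some pairs separate by the order of the libraries alone. The share over all miRNAs is not given here, so nothing is read from this count.

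The replicate number divided the counts of bta-miR-206 unevenly. Replicate 2 libraries held 69.05% of its counts (95% exact binomial interval 66.9 to 71.1, counting error only) and 24.6% of the counts of all miRNAs. Replicate 1 held 9.13% against 44.4% of all counts, and replicate 3 held 21.8% against 31.0%. The 3 control libraries of replicate 2 at 1, 6 and 22 h alone carried 1078 counts, or 56.6% of the total. Outside the control group, replicate 2 exceeded 500 CPM in 1 library, the co-culture group at 6 h. Of the 9 libraries above 500 CPM, 1 was a replicate 1 library, 4 were replicate 2 and 4 were replicate 3. Without the control library of replicate 2 at 6 h, the share of replicate 2 was 54.5%, a value computed after the counts had been seen.

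Among the 116 known miRNAs with a total of at least 390 counts, bta-miR-206 had the widest spread between libraries. Its highest CPM was 119.3 times its median, while the median of this ratio over the 116 was 2.09. Predicted miRNAs are not ranked here, and at least 1 of them, predicted miR-820, had a higher ratio (147.8). The next 5 were bta-miR-1246 (25.3), bta-miR-184 (15.0), bta-miR-155 (11.9), bta-miR-11976 (9.64) and bta-let-7e (6.29), of which bta-miR-155 is known from immune cells and bta-let-7e belongs to the let-7 family. The dispersion of bta-miR-206 in a fit over all 39 libraries was 1.73 and ranked 8th of the 598 miRNAs fitted (median 0.0675). Dispersion here is variation beyond counting error that remains after terms for condition and replicate number. It is moderated toward that of the other miRNAs. The level of bta-miR-206 had a Spearman rho of -0.213 with the total count over the 39 libraries. The libraries share pools and conditions, so this and the correlations that follow are descriptions.

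bta-miR-184 was the miRNA whose levels were most like those of bta-miR-206. It is known chiefly from the epithelia of the lens and cornea. Of the 374 miRNAs compared, which had at least 390 counts in all, it had the highest Spearman correlation of CPM with bta-miR-206 over the 39 libraries (rho = 0.676, median of all compared -0.0673). It was followed by predicted miR-820 (0.663), predicted miR-804 (0.525), bta-let-7c (0.489) and predicted miR-485 (0.483), and only the first 3 exceeded 0.5. Without the 3 control libraries of replicate 2 at 1, 6 and 22 h, the values were 0.604 for bta-miR-184 and 0.572 for predicted miR-820, over 36 libraries. Within replicates 1, 2 and 3 they were 0.725, 0.522 and 0.633 for bta-miR-184 and 0.621, 0.632 and 0.642 for predicted miR-820, over 13 libraries each. For bta-let-7c they were 0.0604, 0.489 and 0.410. For predicted miR-804 they were 0.17, 0.615 and 0.481, and for predicted miR-485 0.165, 0.577 and 0.305. bta-let-7c, predicted miR-804 and predicted miR-485 were each least like bta-miR-206 within replicate 1.

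The libraries high in bta-miR-206 were high in these 2 miRNAs to different degrees. In the control libraries of replicate 2, bta-miR-184 had 194 counts at 1 h, 575 at 6 h and 203 at 22 h, and predicted miR-820 had 59, 130 and 139. In replicate 2 of the co-culture group at 6 h, with 181 counts of bta-miR-206, bta-miR-184 had 157 counts and predicted miR-820 had 3. The likeness was not complete for bta-miR-184 either, since replicate 2 of the control group at 0 h held 245 counts of it and 3 of bta-miR-206. Replicate 2 libraries held 53.3% of the counts of bta-miR-184 and 79.6% of those of predicted miR-820.

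**Figure D2:**
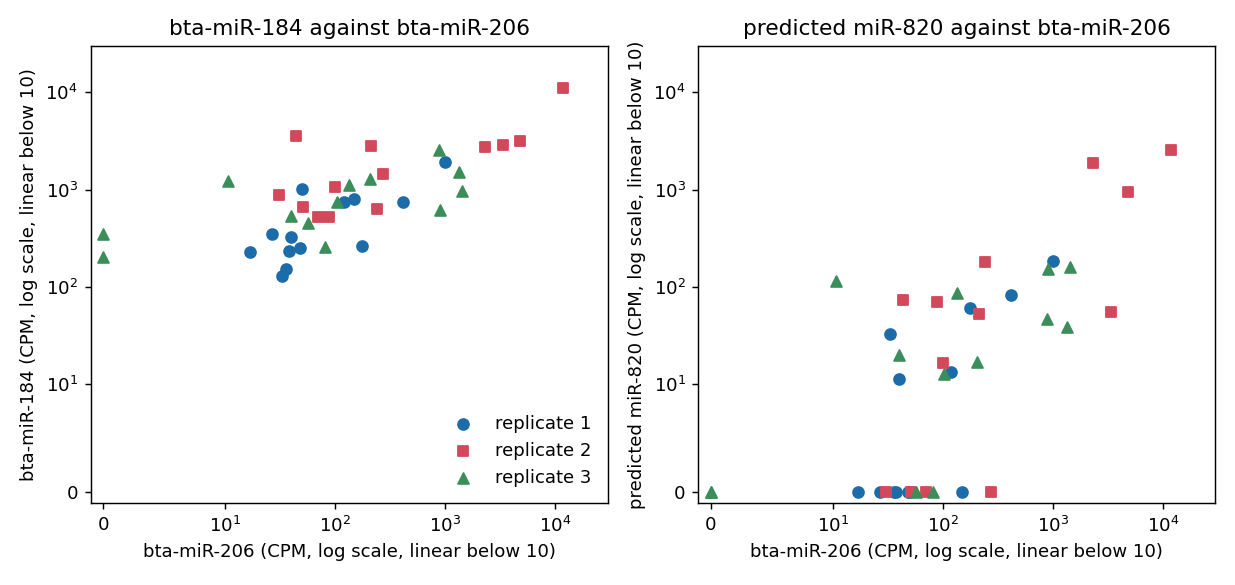
Levels of bta-miR-184 (left) and predicted miR-820 (right) against bta-miR-206 in the 39 libraries, in CPM on log axes that are linear below 10, with the marker showing the replicate number. Both tend to be higher where bta-miR-206 is higher (rho = 0.676 and 0.663), and the library with most bta-miR-206, at 11880 CPM, also has the most bta-miR-184 (11200 CPM) and predicted miR-820 (2532 CPM).

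bta-miR-1, the close relative of bta-miR-206, stayed near the limit of detection. It had 116 counts in all, in 31 of the 39 libraries, with a median level of 33.2 CPM and a highest level of 159.6 CPM. Its counts in the control group were 1, 3 and 3 at 0 h, 6, 4 and 0 at 1 h, 0, 5 and 6 at 6 h, and 18, 3 and 3 at 22 h. In the CBX group they were 0, 2 and 0 at 1 h, 3, 1 and 0 at 6 h, and 7, 3 and 0 at 22 h. The 18 counts of control replicate 1 at 22 h were the most in any library, and they correspond to 136 CPM at its depth. In the co-culture group they were 1, 3 and 4 at 1 h, 2, 0 and 0 at 6 h, and 4, 2 and 6 at 22 h. In the DO group they were 1, 3 and 1 at 1 h, 4, 3 and 5 at 6 h, and 5, 2 and 2 at 22 h.

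By the median of 3 libraries, bta-miR-1 ranged from 0 CPM, in the CBX group at 1 h and the co-culture group at 6 h, to 97.4 CPM in the control group at 6 h. All 12 pairs of neighbours in the order overlapped, and 12 of the 78 pairs of conditions did not. Nothing is read from this count either, as the share over all miRNAs is not given here. The variance of its counts over the libraries was 2.69 times that of counting error, against 378 times for bta-miR-206. Replicates 1, 2 and 3 held 44.8%, 29.3% and 25.9% of its counts, within counting error of their 44.4%, 24.6% and 31.0% of all miRNA counts.

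The Spearman rho between the levels of bta-miR-1 and bta-miR-206 over the 39 libraries was 0.0218. bta-miR-1 had a median of 3 counts and reached 10 counts in only 1 library. Counting error therefore limits this value, and it cannot show whether the 2 vary together. In the 3 control libraries of replicate 2 at 1, 6 and 22 h, which held 1078 counts of bta-miR-206, there were 12 counts of bta-miR-1, a ratio of 89.8 to 1. In the other 36 libraries the ratio was 7.96 to 1, from 828 and 104 counts. The 3 libraries were singled out for their high bta-miR-206, so a higher ratio there follows in part from that choice. bta-miR-206 had more counts than bta-miR-1 in 30 libraries, fewer in 7 and as many in 2.

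The miR-133 members were at or near 0. bta-miR-133a had 11 counts, in 6 libraries that were all of replicate 1. These were 1 in the DO group and 0 in the other groups at 1 h, 1 in the co-culture group and 2 in the DO group at 6 h, and 2 in the control group, 2 in the co-culture group and 3 in the DO group at 22 h. Its highest level was 39.8 CPM, and none of its values exceeded 3 counts. The replicate 1 libraries held 44.4% of all miRNA counts, and the exact 95% interval of the share of bta-miR-133a counts in replicate 1 reaches from 71.5 to 100%. This interval covers counting error only, for 11 counts from libraries treated as 1 pool, and the pattern was seen in these same counts.

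bta-miR-133b, transcribed with miR-206 in muscle, had 0 counts in all 39 libraries. Over the summed 3028647 counts this allows a level of up to 0.990 CPM, or 0.157% of the counts of bta-miR-206. In the control library of replicate 2 at 6 h, where bta-miR-206 had 610 counts, bta-miR-133a and bta-miR-133b were both at 0. The muscle miRNAs therefore differed from one another in their summed counts. bta-miR-206 was the most counted, with 56.6% of its counts in 3 libraries. bta-miR-1 and bta-miR-133a were low, and bta-miR-133b was not detected at this depth.

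**Figure D3:**
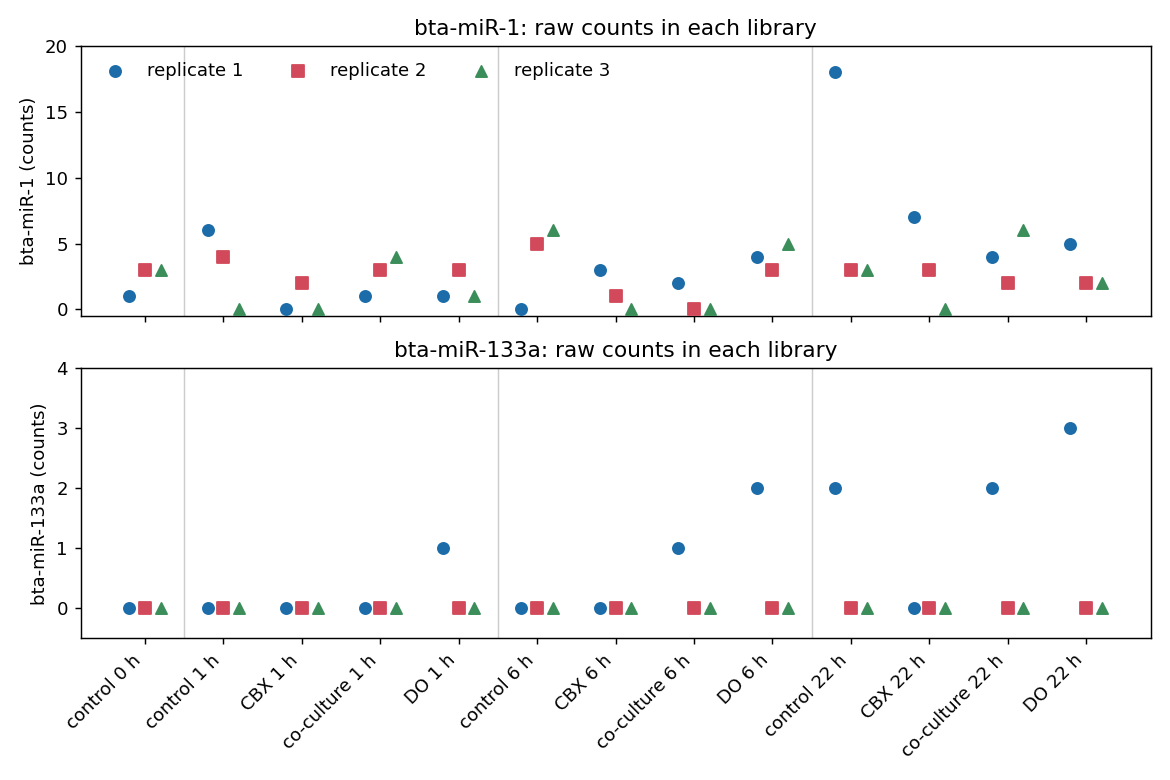
Raw counts of bta-miR-1 (top) and bta-miR-133a (bottom) in each of the 39 libraries, by group and time point, with the marker showing the replicate number. bta-miR-1 reaches 18 counts in 1 library and is at 7 or fewer in the others, and bta-miR-133a is above 0 in 6 replicate 1 libraries.

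The other miRNAs of a muscle list were low as well. bta-miR-499, encoded in a myosin gene, had 126 counts in 32 libraries, and bta-miR-486, found in muscle and in red blood cells, had 57 in 23 libraries. bta-miR-133c and the myosin-encoded bta-miR-208a and bta-miR-208b had 0. Of the 9 listed miRNAs, 5 had a count. Without bta-miR-206, their summed level ranged from 0 to 500.6 CPM over the libraries, with a rho of -0.0469 with bta-miR-206. The top of this range rests on few counts, as bta-miR-486 reached 417.2 CPM with no more than 6 counts in any library. The summed level was 129, 156 and 40.4 CPM in the control libraries of replicate 2 at 1, 6 and 22 h, against a median of 99.9 CPM.

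Lists for other cell types were read the same way. The summed level of 6 blood-cell miRNAs, of which 5 had a count and bta-miR-142-3p was at 0, ranged from 99.1 to 3240 CPM and had a rho of 0.0383 with bta-miR-206. A list of 4 vessel and stroma miRNAs, all with a count, ranged from 999 to 2788 CPM (rho = -0.334). A list of 4 cumulus and granulosa miRNAs, of which 3 had a count and bta-miR-212 was at 0, ranged from 2665 to 10400 CPM (rho = -0.389). The liver miRNA bta-miR-122 ranged from 7317 to 23570 CPM (rho = 0.191). In the 3 control libraries of replicate 2, only the cumulus and granulosa list at 22 h, at 10400 CPM, was at the top of its range, and the part of these cells in the level of bta-miR-206 was not tested.

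Fold changes were taken from edgeR's quasi-likelihood fit over all miRNAs that passed a filter on low counts, with the replicate number as a block. A miRNA was past the threshold when its Benjamini-Hochberg adjusted p was under 0.05 and its log2 fold change was 1 or more in size. The filter asks for the CPM that 10 counts have at the median library size of the comparison, in at least 3 of the 6 libraries, and it left bta-miR-206 out where fewer libraries reached that level. It was tested in 8 of the 18 comparisons between groups and in 4 of the 15 between time points. Every comparison that includes the control group at 0 h or at 6 h was left out, although the highest counts of bta-miR-206 lie in the control group at 6 h. Many of these comparisons share libraries.

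bta-miR-206 was past the threshold in 1 of the 8 comparisons between groups, from the CBX group to the DO group at 1 h, with a log2 fold change of -2.23 (SE 0.53, n = 3 and 3). In that comparison 1.46% of the 479 miRNAs tested were past it, and over all 18 comparisons between groups 0.266% were. The share was 2.35% from the CBX to the DO group at 6 h, 0.473% from the co-culture to the DO group at 6 h, 0.216% from the control to the co-culture group at 22 h, 0.232% from the CBX to the DO group at 22 h, and 0% in the other comparisons between groups. The study itself reported bta-miR-206 as lower in the DO than in the CBX group at 1 h, from these same libraries. As that report and the counts had chosen bta-miR-206, nothing is read from this call. By replicate, its level was 16.8 CPM in the CBX group and 35.7 in the DO group for replicate 1, 240 and 30.6 for replicate 2, and 899 and 135 for replicate 3. Replicates 2 and 3 were lower in the DO group, replicate 1 was higher from 2 and 3 counts, and the groups overlapped. Without replicate 1 the log2 fold change was -2.75 and past the threshold, without replicate 2 it was -2.11 and not past it, and without replicate 3 bta-miR-206 did not pass the filter. With no replicate block it was -2.40 and with DESeq2 -1.85, and neither was past the threshold.

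Between time points, bta-miR-206 was past the threshold in 1 of 4 comparisons, from 6 to 22 h in the CBX group, with a log2 fold change of 3.28 (SE 0.51, n = 3 and 3). Of the 440 miRNAs tested there it was the only one past the threshold (0.227%), and 0.17% were past it over all 15 comparisons between time points. The share was 0.44% from 1 to 22 h in the control group, 1.81% from 1 to 22 h in the DO group, and 0% in the other comparisons between time points. Its level went from 47.8 to 992 CPM in replicate 1, from 51.5 to 213 in replicate 2 and from 205.6 to 1431 in replicate 3. All 3 replicates were higher at 22 h, and the groups did not overlap, though the highest library at 6 h (205.6 CPM) and the lowest at 22 h (213 CPM) were close. The value of 213 CPM rests on 4 counts. Without replicate 1 the log2 fold change was 2.59 and not past the threshold, and with no replicate block it was 3.28 and not past it either. Over the remaining leave-outs it was 3.53 and 3.72, both past the threshold.

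Among the 12 comparisons tested, the largest fold changes on the log2 scale were not all past the threshold. From the CBX group to the co-culture group at 22 h the log2 fold change was -3.68 (SE 0.64), with the co-culture library lower in all 3 replicates and no overlap. This one was past the threshold with DESeq2 (-3.62), without replicate 1 (-3.12) and without replicate 2 (-4.37), and not without replicate 3 (-3.20). From the control group to the CBX group at 22 h it was 2.61 (SE 1.87), from 37.9, 2314 and 10.6 CPM to 992, 213 and 1431 CPM. There replicates 1 and 3 were higher in the CBX group and replicate 2 was lower. Without replicate 2 this log2 fold change was 5.41, and without replicate 3 it was 0.64. Of the 4 tested comparisons between time points, 1 fell, from 1 to 6 h in the CBX group (-1.31, SE 0.60), where replicates 2 and 3 were lower and replicate 1 higher. Comparisons between time points that the filter left out had larger falls when fitted without it, none of them past the threshold. These were -3.07 from 6 to 22 h in the co-culture group, -1.92 from 6 to 22 h in the control group and -1.65 from 1 to 22 h in the co-culture group. Without the filter, 2 comparisons between time points were past the threshold, both of them rises in the DO group. They were from 6 to 22 h (2.27) and from 1 to 22 h (2.63). The share of all miRNAs past the threshold without the filter is not given here, so nothing is read from these calls.

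In the 12 tested comparisons, the side of the threshold often depended on which replicates were in the fit. Leaving out 1 replicate at a time gave 32 fits in these comparisons. The side of the threshold changed in 12 of them, in 10 of the 12 comparisons. Most of these changes were from not past the threshold to past it, in fits with fewer libraries per group. The share of all miRNAs past the threshold in those fits is not given here, so the changes are not read as a trait of bta-miR-206. The direction turned in 3 fits: from the CBX group to the co-culture group at 1 h (-0.11 with all replicates, 0.55 without replicate 2), from the control group to the DO group at 22 h (0.71 and, without replicate 3, -1.58), and from 1 to 6 h in the co-culture group (1.62 and, without replicate 2, -1.10).

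**Figure D4:**
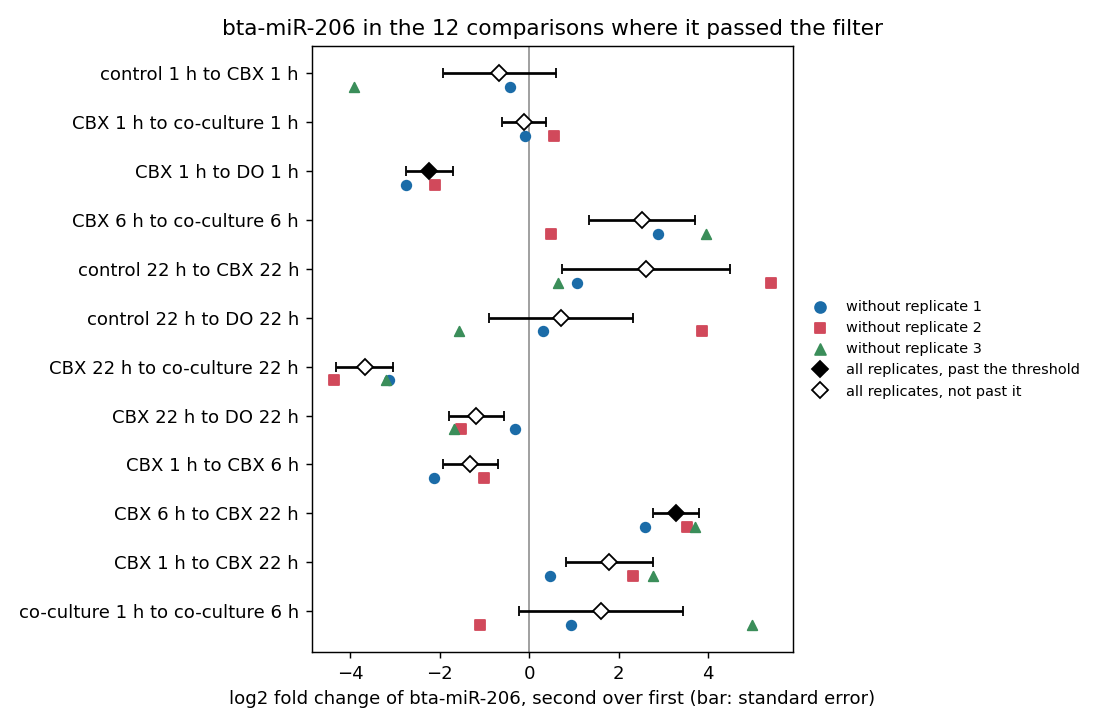
Log2 fold change of bta-miR-206, second condition over first, in the 12 comparisons where it passed the low-count filter, with its standard error as the bar, and the value without each replicate as coloured markers below it. The filled diamonds, from the CBX to the DO group at 1 h (-2.23) and from 6 to 22 h in the CBX group (3.28), are past the threshold, and in 3 comparisons a marker lies on the other side of 0.

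In most comparisons the 3 replicates of bta-miR-206 did not move the same way in CPM. Some agreement among 3 replicates arises without any difference, and the share over all miRNAs is not given here. The counts below are therefore not read as a trait of bta-miR-206. Over the 18 comparisons between groups, all 3 replicates moved the same way in 2, from the CBX to the co-culture group and from the co-culture to the DO group, both at 22 h. In the latter, the DO library was higher in each replicate (50.5 to 120, 99.6 to 273 and 57.1 to 882 CPM), but bta-miR-206 did not pass the filter. Fitted without the filter, its log2 fold change there was 2.34 and past the threshold. Over the 15 comparisons between time points they moved together in 4. These were from 6 to 22 h in the CBX group, from 1 to 22 h and from 6 to 22 h in the DO group, all 3 higher at 22 h, and from 6 to 22 h in the co-culture group, lower at 22 h. No comparison with the control group was among them.

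bta-miR-1, bta-miR-133a and bta-miR-133b passed the low-count filter in 0 of the 33 comparisons. Without the filter, bta-miR-1 could be fitted in all 33 and bta-miR-133a in 23, and 0 of either were past the threshold. At their counts a difference between conditions was not detectable at this depth, which is not the same as no difference.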

How the data were processed

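RNA of 39 pools of bovine oocytes was sequenced with the QIAseq miRNA kit. The authors trimmed the reads, removed duplicates by unique molecular identifier, aligned to ARS-UCD1.2 and assigned reads to miRBase or, with miRPro, to predicted miRNAs. The submitters' processing notes name FastQC 0.11.9 and UMI-tools 1.1.2. The deposited values are whole-number counts per mature miRNA, not normalized. Known and predicted counts were joined (1995 miRNAs), and CPM was computed over both. Table columns were matched to libraries through the sample descriptions, and 0 columns were left unmatched.

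The members, lists and rules were chosen with earlier results of these data known. Named were the members, the muscle list, the 5 miRNAs most correlated with bta-miR-206 and the 5 known miRNAs with the widest spread (total count of at least 390, 1 kept where several share all counts), and for bta-miR-206 the comparisons past the threshold and the largest fold changes. miRNAs sharing a seed were also to be named. Mature sequences were not used here, so that part was not applied and no sequence is printed.

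Each comparison used its own 6 libraries with edgeR 4.0.16 (limma 3.58.1, R 4.3.3) in the edgeR 3 manner: filterByExpr (minimum count 10, minimum total 15), TMM, quasi-likelihood F-test, a block for the replicate number, and p-values adjusted over all miRNAs tested (Benjamini-Hochberg). The standard error was the size of the log2 fold change divided by the square root of F. The block follows the study's batch term. Deviations of same-numbered libraries correlated with a median of 0.253 between groups (48 of 54 over 0.1) and 0.252 between time points (32 of 45). In simulated counts for CBX against DO at 1 h (488 miRNAs), edgeR called 95.7% of 94 larger (2 on the log2 scale) and 42.1% of 95 smaller changes (1 on the log2 scale), with 2 of 132 calls false, and 0 with no change simulated. DESeq2 1.42.0 called 92.6% and 31.6%, with 0 of 117 false. The simulation gave every miRNA the same dispersion and no difference between pools. bta-miR-206 had a dispersion of 1.73 against a median of 0.0675, so these rates do not apply to it.

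Alternatives were no replicate block, RLE size factors, DESeq2, no filter, known miRNAs only, library sizes from the study's totals of deduplicated reads, the robust option, 1 fit over all 39 libraries, other scalings of levels, and leaving out each replicate. Total counts ran from 11985 to 175429, and intervals and the limit of 3 counts cover counting error only. The labels do not say that the pools are separate animals, so the spread is that between these pools. Coordinates were not used, because the RefSeq gene table is of ARS-UCD2.0 and the counts are of ARS-UCD1.2.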

Additional observations from a re-analysis of the deposited data

How the results depend on the processing

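bta-miR-206 was past the threshold in 1 comparison between groups and 1 between time points. Both counts were 0 with no replicate block and with 1 fit over all 39 libraries. With no low-count filter they were 4 and 2, none of which is either of the comparisons above. Between groups these were from the co-culture to the DO group at 1 h (-2.45), 6 h (-2.96) and 22 h (2.34). The last was from the control to the co-culture group at 22 h (-2.25). Between time points they were from 6 to 22 h (2.27) and from 1 to 22 h (2.63) in the DO group. With library sizes from deduplicated reads they were 1 and 0, a setting that shifts the median log2 fold change of all tested miRNAs by -0.33 from the CBX to the DO group at 1 h and by -0.53 from 6 to 22 h in the CBX group. Leaving out replicates gave 4 to 4 and 1 to 3. DESeq2 and the known miRNAs alone each gave 1 between groups, from the CBX to the co-culture group at 22 h. The share of all miRNAs past the threshold under these alternatives is not given here. The counts are therefore not read as a trait of bta-miR-206.

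From the CBX to the DO group at 1 h, the log2 fold change fell short of the threshold with no replicate block (-2.40), DESeq2 (-1.85), no filter (-2.21), known miRNAs only (-1.99) and 1 fit (-2.19). It ranged from -2.75 to -2.11 without replicate 1 or 2, and could not be fitted without replicate 3. From 6 to 22 h in the CBX group, it fell short with no block (3.28), no filter (3.23), deduplicated sizes (2.85) and 1 fit (3.82), with 2.59 to 3.72 over the leave-outs. The cause was not tested. Every one of these fits kept its direction. bta-miR-1 passed the filter in 0 of 33 comparisons under each alternative that kept it, except in 1 without replicate 3, so its 0 calls say nothing there, and without the filter 0 of 33 were past the threshold.

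The share of bta-miR-206 counts in replicate 2 was 69.05%, 76.2% as summed CPM, 76.0% as CPM of known miRNAs, 69.5% scaled to deduplicated reads and 54.5% without the control library of replicate 2 at 6 h. Its ratio of highest to median CPM was 119.3, 121.4 on known miRNAs and 113.2 per deduplicated read. Depth limits libraries with few bta-miR-206 counts.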
